A study of Drosophila melanogaster with 6 samples.

Results

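The 7 gap genes examined here, gt (giant), hb (hunchback), Kr (Krüppel), kni (knirps), knrl (knirps-like), tll (tailless) and cad (caudal), were taken by symbol from the array annotation, out of 11983 genes with a probe set that names no other gene. They were read by 8 probe sets, since gt had a second one; where a gene had several, the one with the highest mean stands for it. RNA of whole Drosophila melanogaster embryos was measured on Affymetrix Drosophila Genome 2.0 arrays, 3 for the wild-type line Oregon R and 3 for foxL1 null embryos, whose genotype the labels give as foxLCr/foxL1del. The labels give no further allele and no agent for either group, and do not say what the alleles remove. They describe the samples as independent biological RNA preparations of stages 11 to 15, from an 8 h collection aged for a further 11 h at room temperature. The null embryos and the controls come from separate lines, so genotype and line cannot be told apart.

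Gap genes encode transcription factors that are switched on in broad bands along the head-to-tail axis of the blastoderm, before cells have formed, and loss of one removes a run of neighbouring segments. Maternal Bicoid and Caudal proteins and Torso signalling at the poles set the borders of gap gene bands. Gap genes repress one another, and together they place the stripes of the pair-rule genes. Most are used again later: hb and Kr mark the age of dividing neuroblasts, kni and knrl act in tracheal branches, tll in the brain and optic lobe, Kr in the amnioserosa and Malpighian tubules, cad in the hindgut. The labelled stages follow the blastoderm, the collection and ageing times seem later still, and the sources used here do not say which of them holds. In whole embryos fewer expressing cells and less RNA per cell cannot be told apart.

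The deposited values are log2 signals from robust multi-array averaging (RMA). Differences are null minus wild type, fitted with limma, with p-values adjusted by Benjamini and Hochberg over 18769 probe sets and a threshold of 0.05. FoxL1, the targeted gene, read 4.85, 5.12 and 5.01 on wild-type arrays 1 to 3 and 4.23, 4.35 and 3.37 on null arrays 1 to 3, which do not overlap (log2 difference -1.01, SE 0.25, limma adjusted p = 0.0489). That call ended without any 1 wild-type array or without null array 1 (adjusted p of up to 0.155), and after either rescaling of the arrays. It also ended in a plain linear model fitted to each probe set alone (adjusted p = 0.22). Null array 3 stood apart, with the lowest array weight (0.317). Its 3' minus 5' difference of the actin control was 0.20, where the other 5 arrays lay between 0.67 and 0.82. The same difference of the eIF-4a control was also lowest there (0.71, others 0.88 to 0.93). That of the GAPDH control was instead the highest (0.62, others 0.43 to 0.53). Of the 4 measured markers of tissues present at the labelled stages, elav of neurons, repo of glia, sage of the salivary gland and srp of blood and fat body, every array read above 6, over the 25th percentile of about 3 (2.95 to 3.00 by array). The lowest value of any of the 8 gap gene probe sets on any array was 4.75, above that percentile.

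**Figure D1:**
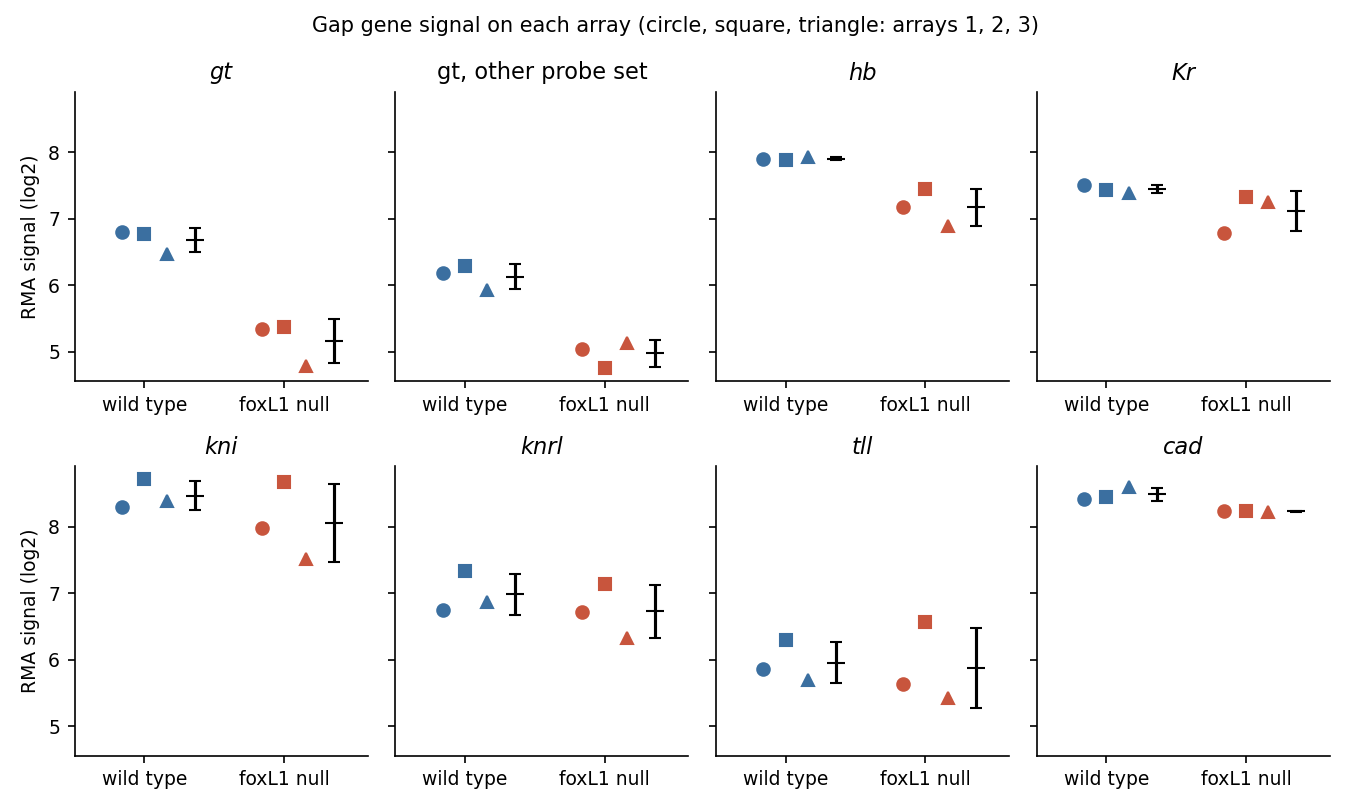
Signal of the 8 gap gene probe sets (log2 RMA values, vertical axis) on the 3 wild-type (blue) and 3 foxL1 null (red) arrays, with circle, square and triangle for arrays 1, 2 and 3 and black bars for the mean and SD. The groups lie apart for both gt probe sets, hb, Kr and cad and overlap for kni, knrl and tll; levels of different genes cannot be compared on this scale.

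Of the 7 genes, gt and hb fell in the null embryos, none rose and 5 did not pass. Across the array 4.00% of the 11983 genes were called lower and 6.24% higher, and with the replicate numbers as a block 9.09% were called lower. All 7 means were lower in the null group, from -1.52 to -0.08 with a median of -0.32, beside a median of -0.07 and 60.0% of means lower over all genes. For 4 of the 7 every null array lay below every wild-type array, as did 17.8% of all genes. The members were chosen with earlier results of these data known, so these counts are a description.

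**Figure D2:**
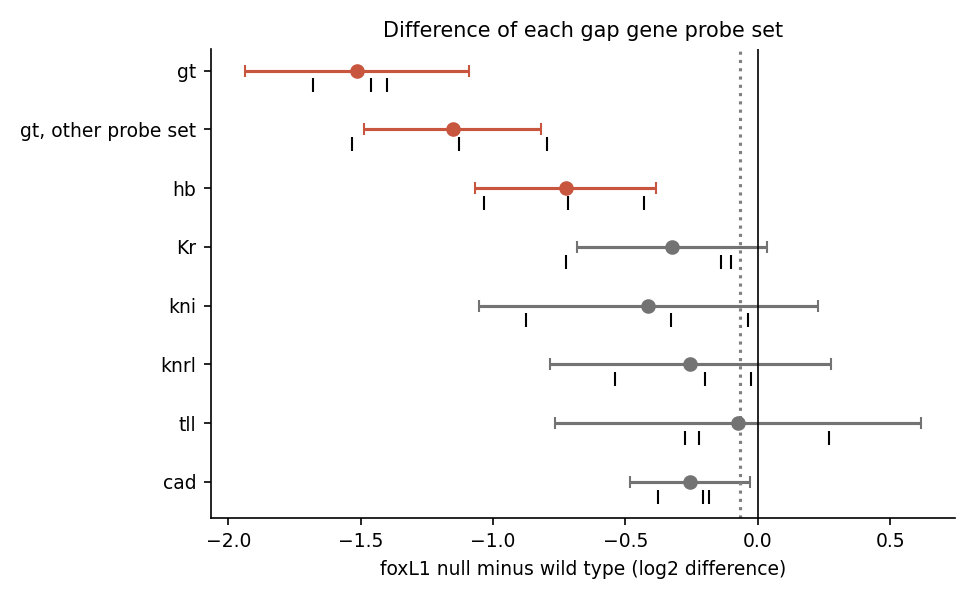
Difference of each gap gene probe set, null minus wild type (log2, horizontal axis), with limma's 95% interval as bars, red where the adjusted p passed 0.05. Short black ticks are the differences of same-numbered arrays and the dotted line is the median of all genes, -0.07. Only gt, by both probe sets, and hb passed, and the intervals of Kr, kni, knrl and tll span 0.

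The gene gt encodes a basic leucine zipper repressor of the gap network. Its brighter probe set read 6.80, 6.78 and 6.47 on wild-type arrays 1 to 3 and 5.34, 5.37 and 4.78 on null arrays 1 to 3. The highest null value lay 1.09 below the lowest wild-type value. The mean level went from 6.68 ± 0.19 to 5.17 ± 0.33 (SD, n = 3 each), 2.86-fold lower with a 95% interval of 2.13 to 3.83 (log2 difference -1.52, SE 0.18, limma adjusted p = 0.00339). This difference ranked 33 from the lowest among the 11983 genes, and 30 of the genes called lower, gt included, fell at least as far. The other gt probe set read 6.18, 6.29 and 5.92 on the wild-type arrays and 5.05, 4.75 and 5.13 on the null arrays. It fell 2.22-fold (log2 difference -1.15, SE 0.14, limma adjusted p = 0.00387), again without overlap. The probe sets ordered the null arrays differently: array 3 was the lowest by the brighter one and the highest by the other. Same-numbered arrays differed by -1.46, -1.40 and -1.68 by the brighter probe set and by -1.13, -1.53 and -0.80 by the other.

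The zinc finger factor gene hb, supplied by the mother and again by the embryo, fell less. It read 7.90, 7.88 and 7.93 on the wild-type arrays and 7.18, 7.45 and 6.89 on the null arrays. The wild-type values lay within 0.05 of each other, the null values spread over 0.56, and the groups stayed 0.43 apart. The difference was -0.73, or 1.65-fold lower with a 95% interval of 1.30 to 2.10 (SE 0.15, limma adjusted p = 0.0247). The call of hb was lost when wild-type array 1, 2 or 3 was left out (adjusted p = 0.0869, 0.0728 and 0.103), when null array 1 was (0.0765), and with arrays centred on their medians (difference -0.61, adjusted p = 0.0511), while that of gt held with each array left out (adjusted p of up to 0.018).

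Kr, a zinc finger factor of the central embryo, read 7.51, 7.43 and 7.39 on the wild-type arrays and 6.78, 7.33 and 7.25 on the null arrays. Null array 1 lay well below the rest, and the other null arrays came within 0.14 of the wild-type array of the same number. The difference, -0.32, did not pass (SE 0.15, limma adjusted p = 0.285), with a 95% interval of -0.68 to 0.04, and it was -0.15 without null array 1. Caudal is a homeodomain factor of the posterior embryo, and its transcript cad is also laid down by the mother. The gene read 8.41, 8.44 and 8.59 in the wild type against 8.23, 8.24 and 8.21 in the null group, where the values lay within 0.03 of each other. Its groups were separate by 0.18, and its pooled SD of 0.07 was below that of all but 5.6% of genes. The difference of -0.26 still missed the threshold over all probe sets (SE 0.10, unadjusted p = 0.0324, limma adjusted p = 0.181), with an interval of -0.48 to -0.03. After centring the arrays on their medians, Kr and cad overlapped between the genotypes and differed by -0.20 and -0.14.

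The paralogues kni and knrl encode nuclear receptors of the same small family and lie close together on chromosome arm 3L, with CG13251 as the only protein-coding gene between them in the gene order used here. The values of kni were 8.30, 8.71 and 8.38 on the wild-type arrays and 7.97, 8.67 and 7.50 on the null arrays. Those of knrl were 6.75, 7.33 and 6.87 against 6.72, 7.13 and 6.33. Both genes ordered the 6 arrays alike, from wild-type array 2, null array 2 and wild-type array 3 down to wild-type array 1, null array 1 and null array 3. The differences, -0.41 for kni (SE 0.28, limma adjusted p = 0.462, 95% interval -1.05 to 0.23) and -0.25 for knrl (SE 0.23, adjusted p = 0.598, interval -0.79 to 0.28), did not pass. Without null array 2 they were -0.72 and -0.46, and without null array 3 they were -0.14 and -0.06. The spread between replicates was wide, with pooled SDs of 0.44 and 0.36 against a median of 0.17 over all genes.

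The gene tll, a nuclear receptor of the embryo's poles and later of the brain, had the widest spread of the 7, a pooled SD of 0.48. It read 5.86, 6.29 and 5.70 on the wild-type arrays and 5.64, 6.56 and 5.42 on the null arrays, so that null array 2 was the highest and null array 3 the lowest of the 6. Its difference of -0.08 (SE 0.30, limma adjusted p = 0.923) turned to 0.04 with arrays centred on their median and to 0.05 after a repeated quantile normalization, and its 95% interval ran from -0.77 to 0.62. Like kni and knrl, tll was highest on array 2 in both genotypes, an order found in 22.6% of all genes. Null array 3 was the lowest of the 6 arrays for 6 of the 7 gap genes, all but Kr, and for 33.9% of all genes. What arrays of number 2, or null array 3, had in common was not tested.

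**Figure D3:**
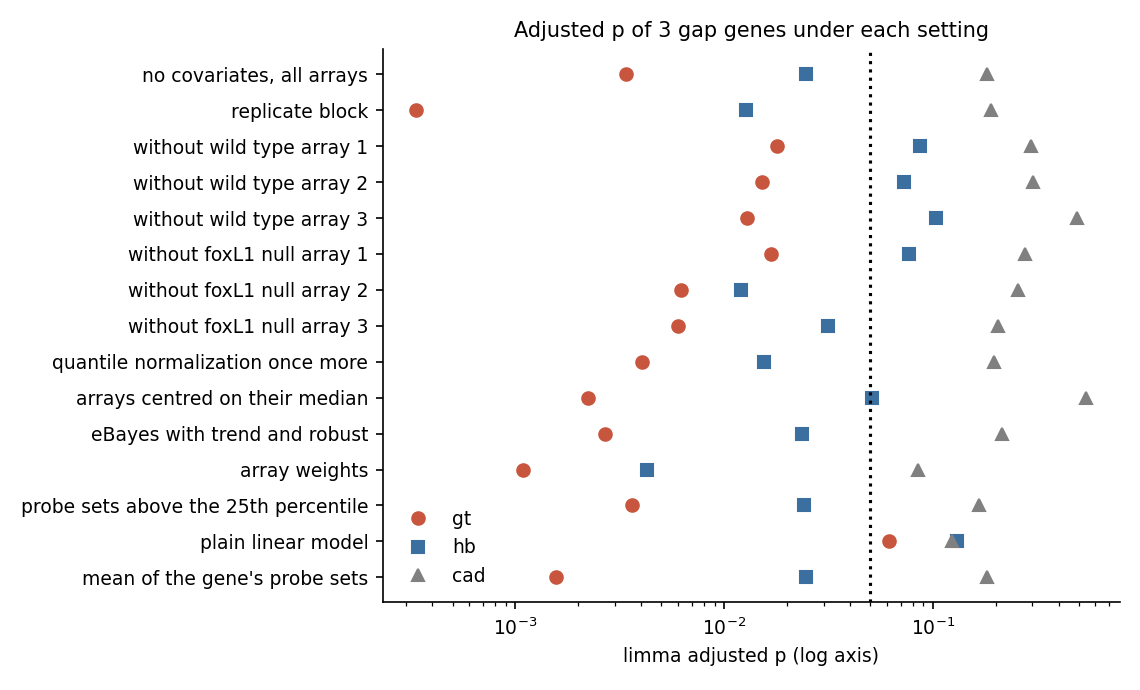
Limma adjusted p (log axis) of gt (red circles), hb (blue squares) and cad (grey triangles) with all arrays and under each other setting, with the threshold of 0.05 dotted. The points of gt lie below the threshold except in a plain linear model fitted to each probe set alone, where it had 0.0615; those of hb cross it in 6 settings and those of cad stay above it.

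Among genes that act before the gap genes, those that passed were higher in the null embryos. Of 12 measured maternal and upstream regulators 5 rose, 0 fell and 7 did not pass, with a median of 0.49. Over all genes 6.24% were called higher and 4.00% lower. In a plain linear model fitted to each probe set alone 3 of the 12 were called higher. The largest differences in this list were those of tor, the receptor of the terminal system, and bcd, the head determinant that activates hb. The tor transcript read 5.36, 5.25 and 5.52 on the wild-type arrays and 7.99, 7.76 and 7.82 on the null arrays (log2 difference 2.48, SE 0.12, limma adjusted p = 0.000116). The bcd transcript read 7.14, 6.73 and 7.71 on the wild-type arrays and 9.63, 9.57 and 9.61 on the null arrays, 5.33-fold higher (log2 difference 2.42, SE 0.22, adjusted p = 0.00145). Another bcd probe set rose by 2.17 (SE 0.23, adjusted p = 0.00224). Both genes kept the call with each array left out. Stat92E, the JAK/STAT factor, rose by 0.73 (SE 0.12, adjusted p = 0.0129) and pum, a translational repressor of maternal hb, by 0.83 (SE 0.15, adjusted p = 0.0179), but neither passed in all fits with 1 array left out (adjusted p of up to 0.0587 and 0.0646). A second pum probe set differed by 0.10 (SE 0.23, adjusted p = 0.862). Of the 12, 2 were called higher when wild-type array 1 or 2 was left out and 3 when null array 1 was, and with the replicate block nanos, of the posterior determinant, also passed as lower (-0.73, adjusted p = 0.0494) and cic, a repressor of terminal gap genes, as higher (0.64, adjusted p = 0.0308). They and brat, the remaining gene called higher (0.75, SE 0.17, adjusted p = 0.0388), are named after their values were seen.

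Further gap-class genes and the pair-rule targets were set beside gt and hb. Among 11 measured further gap-class genes 2 fell, 0 rose and 9 did not pass, with all 11 means lower and a median of -0.38. Across the array 4.00% of genes were called lower and 6.24% higher, and 9.09% lower with the replicate block. With that block 5 of the 11 fell, and 5 fell when null array 2 was left out. When any 1 wild-type array or null array 1 was left out 1 fell. In a plain linear model fitted to each probe set alone 0 did. The POU gene pdm2 went from 8.21 ± 0.19 to 7.22 ± 0.21 (SD, n = 3 each; log2 difference -0.99, SE 0.15, limma adjusted p = 0.00768) and kept the call with each array left out. The Sox gene D (Dichaete) fell by 0.80 (SE 0.15, adjusted p = 0.0189), with an adjusted p of up to 0.078 when 1 array was left out. Of 7 measured pair-rule genes 3 fell, 0 rose and 4 did not pass (median -0.51). They were prd, at -1.35 (SE 0.30, adjusted p = 0.0345), ftz, at -0.81 (SE 0.19, adjusted p = 0.0443), and slp2, at -0.76 (SE 0.19, adjusted p = 0.0482). Each kept its call in only 1 of the 6 fits with 1 array left out (adjusted p of up to 0.117, 0.15 and 0.141 in the others). Without null array 3 or wild-type array 1 or 2, and in the plain linear model, 0 of the 7 were called. Without wild-type array 3 or null array 1, or after centring, 1 was, and 4 were with the replicate block.

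Tissues and stages in which gap genes are active were followed by further lists. Their counts stand beside 4.00% of all genes called lower and 6.24% higher, and 9.09% lower with the replicate block. Of 8 neuroblast temporal factors, a list that shares hb and Kr with the gap genes and pdm2 and D with the gap-class list, 3 fell and 0 rose (median -0.38), namely pdm2, D and hb, and 1 of the 8 fell when any 1 wild-type array or null array 1 was left out. Of 8 amnioserosa genes 4 fell and 0 rose (median -0.60), among them zen at -0.98 (SE 0.15, limma adjusted p = 0.00932) and the T-box genes Doc3, Doc1 and Doc2. The Doc genes differed by -0.90, -0.87 and -0.69, and none of the 3 passed in every fit with 1 array left out (adjusted p of up to 0.0773, 0.0925 and 0.151). Leaving out wild-type array 1 or 2 or null array 1 left 1 of the 8 called. Leaving out wild-type array 3 left 2, and with the replicate block 5 fell. In a plain linear model fitted to each probe set alone 0 of the 8 amnioserosa genes fell, and 0 of the 8 temporal factors. Of the 5 measured tracheal genes, knrl among them, 0 passed and 0 had an unadjusted p under 0.05. Their median of -0.22 ran from -0.42 without null array 2 to -0.06 without null array 3. Among 7 hindgut and Malpighian tubule genes 1 fell, lin, at -0.58 (SE 0.13, adjusted p = 0.0337), and among 7 brain and optic lobe genes 1 fell, Optix, at -0.48 (SE 0.10, adjusted p = 0.0258). These lists had medians of -0.14, which ran from -0.26 without wild-type array 1 to -0.03 without wild-type array 2, and -0.38. With the replicate block 2 and 3 of their genes fell, and in the plain linear model 0 and 1 did. After centring, or when any 1 wild-type array or null array 1 was left out, 0 of either list fell. Of 6 oenocyte genes 0 passed, with 2 at an unadjusted p under 0.05.

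**Figure D4:**
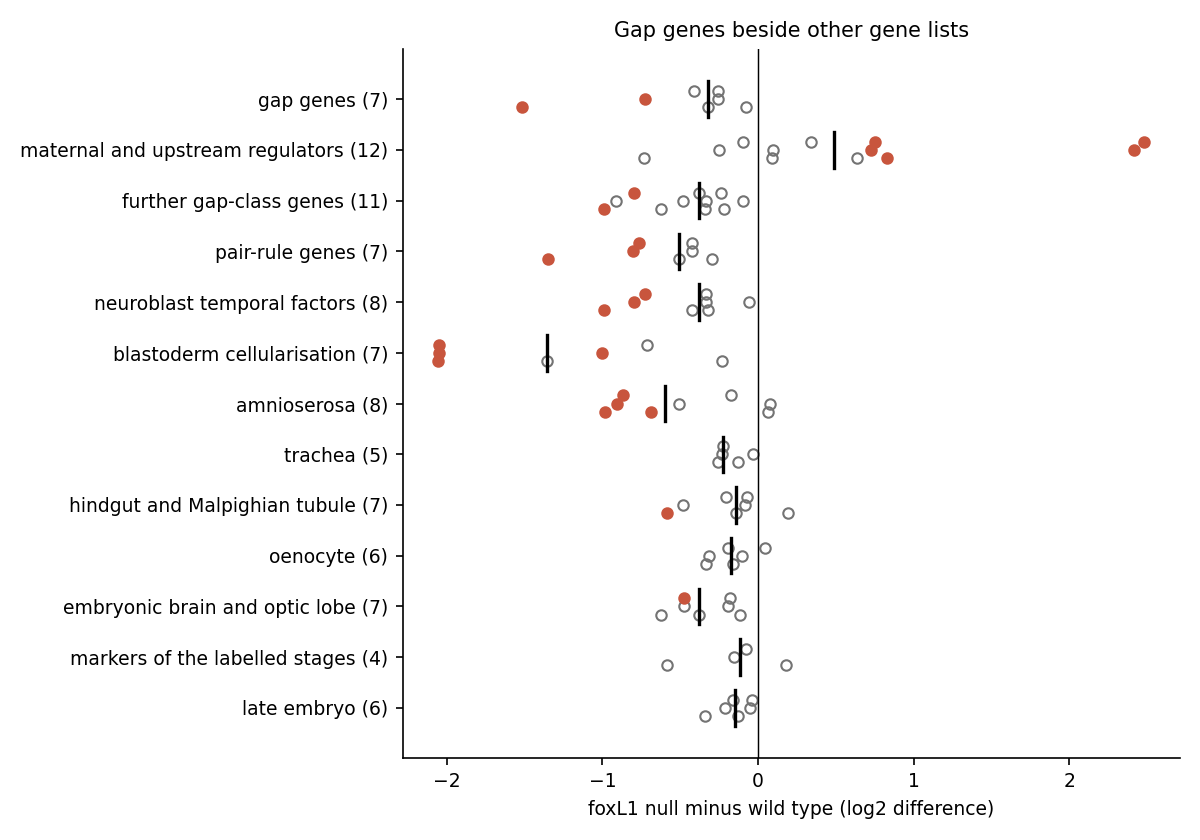
Difference of each gene, null minus wild type (log2, horizontal axis), for the gap genes and 12 further lists, with the number measured in brackets, filled red points where the limma adjusted p passed 0.05 and a black bar at each list's median. The maternal and upstream regulators have the only median above 0, at 0.49, and the blastoderm genes the lowest, at -1.36; some genes stand in several lists.

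At the cellularising blastoderm gap genes form their bands. Of 7 measured genes of that stage 4 fell, 0 rose and 3 did not pass (median -1.36). Over all genes the shares called were 4.00% lower and 6.24% higher. With the replicate block 6 fell, beside 9.09% of all genes, and 5 did with array weights or without null array 1 or 3. Without wild-type array 1 or 2 the count was 3, and in a plain linear model fitted to each probe set alone it was 2. On all 7 every null array lay below every wild-type array, beside 17.8% of all genes. The list's mean log2 signal was 6.80 to 7.11 on the wild-type arrays and 5.26 to 5.99 on the null arrays. The lipid droplet transport gene halo differed by -2.05 (SE 0.21, limma adjusted p = 0.00202). The gene bnk, which acts on the actin network of cellularisation, went from 4.84 to 3.84 (SE of the difference 0.12, adjusted p = 0.00309), and both kept the call with each array left out. Z600 and SNCF also differed by -2.05 each and passed (adjusted p = 0.014 and 0.0164), but not in every fit with 1 array left out (adjusted p of up to 0.0509 and 0.0638). Of 6 late embryo genes of muscle and synapse 0 passed, with 0 at an unadjusted p under 0.05. Their median was -0.15, and with 1 array left out it ran from -0.28 (wild-type array 2) to 0.03 (null array 2), so that its sign turned. Of the 4 markers of the labelled stages 0 passed, with 1 at an unadjusted p under 0.05, srp (-0.58, limma unadjusted p = 0.0108). Without null array 2, or with array weights, 1 of the 4 was called lower. The median of the 4, -0.12, was -0.02 without wild-type array 2 and 0.00 after centring. The part of embryo age in the differences of gt and hb was not tested.

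Position in the genome was described from the gene order of the RefSeq Release 6 plus ISO1 MT table, since the sources used here name no build. Of the 3 nearest measured protein-coding genes on either side of each gap gene, or 2 on the side of Kr where the table ends, 36 genes in all besides the members, 1 was called lower and 2 higher. Over all genes 4.00% were called lower and 6.24% higher, so these counts are a description. The gene called lower was tko, which encodes a mitochondrial ribosomal protein and is the next gene to gt on the X chromosome; it was named after its value was seen. It read 9.44, 9.19 and 9.24 on the wild-type arrays and 8.20, 7.88 and 8.12 on the null arrays, without overlap. Its fall of 2.34-fold (log2 difference -1.23, SE 0.13, limma adjusted p = 0.00202) held with each array left out (adjusted p of up to 0.0126). On the other side of tko, boi differed by -0.57 (SE 0.18, adjusted p = 0.119), and z, the next, by -0.12 (SE 0.11). On the other side of gt, CG32797 differed by 0.05, near the dim end of the arrays at 3.39 in the wild type, and CG12496 by -0.84 (SE 0.30, adjusted p = 0.155). Within 10 genes on either side of gt 18 had a probe set, of which tko fell and wds rose (0.56, SE 0.10, adjusted p = 0.014), with a median of -0.15. The part of a difference between the lines at this place was not tested. The genes called higher lay 3 measured genes from their gap gene, TMEM216 beside hb (0.95, SE 0.12, adjusted p = 0.00345) and Ns4 beside cad (1.20, SE 0.13, adjusted p = 0.0025).

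**Figure D5:**
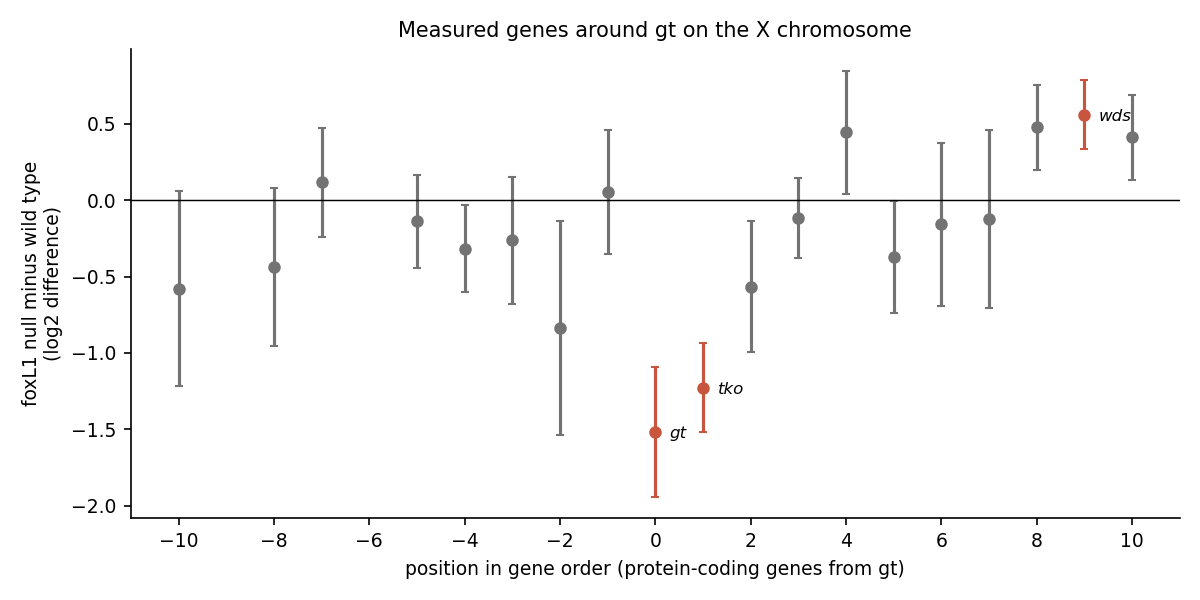
Difference, null minus wild type (log2, vertical axis), of gt and the 18 measured genes within 10 protein-coding genes on either side, in gene order, with limma's 95% interval; red marks an adjusted p under 0.05. The neighbours gt and tko lie lowest, at -1.52 and -1.23, and the genes beyond them scatter on both sides of 0.

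By the pattern over the 6 arrays, each gene centred on its own mean, the named genes most like gt were Bro, hpRNA:CR33940 and Orc4, with root mean square differences of 0.06, 0.14 and 0.15 on the log2 scale. Those most like hb were Tti1, Fatp3 and SMC3, at 0.07, 0.08 and 0.08. Bro differed by -1.49 and Tti1 by -0.70 between the genotypes, close to gt and hb, which follows from choosing them by the same 6 values. The 6 arrays are the only points behind this likeness. Under other settings 1 to 3 of the genes nearest to gt were the same, and 0 to 3 of those nearest to hb.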

How the data were processed

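The authors' deposited values are log2 signals of 6 arrays, 1 value per probe set, made with Partek and RMA per the submitters' processing notes, which give no version. RMA brings the arrays towards a shared distribution, which reduces shifts common to most transcripts, and it compresses low signals. The array medians of the deposited values still differed, at 4.92 to 5.05 in the wild type and 4.84 to 4.91 in the null group. Of 18952 probe sets 183 controls were left out. Of the rest 13647 named 1 gene, 402 several and 4720 are unnamed here. For 13544 of the probe sets that named 1 gene the symbol was read through the gene identifier, and 103 kept the annotation's symbol. The linear fit (limma 3.58.1, R 4.3.3, with eBayes) ran on 18769 probe sets without covariates, with 2-sided p-values, and was tested on simulated data. With 3 arrays a group an exact test cannot go below 0.1. The members, the 12 gene lists and the tests were chosen with earlier results of these data known. Named are all members, up to 4 called genes per list by smallest p, the 3 named genes (symbols that start with CG or CR left out) nearest in pattern to each called member, and genes stated to be chosen after their values were seen. The list symbols nos and h were read as nanos and hry; list genes that no probe set names alone were not analysed here. The labels do not state that arrays of the same number are pairs. Deviations from the group means correlated at 0.108, 0.544 and 0.224 between wild-type and null arrays 1, 2 and 3. Wild-type array 1 correlated more with null array 3 (0.266), so the data do not settle how arrays 1 and 3 pair. The replicate block follows the array numbers and is an alternative fit. Sequences of the genes were not used here.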

Additional observations from a re-analysis of the deposited data

How the results depend on the processing

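Results were recomputed with the replicate block, with single arrays left out, a repeated quantile normalization, centring on array medians, a trended robust fit, array weights, a filter at the 25th percentile, a linear model without shared spread, and the mean of a gene's probe sets. With all arrays 2 gap genes were called lower; 1 was with centring, 0 without shared spread, and 1 to 2 with an array left out. Without shared spread gt (-1.52) had an adjusted p of 0.0615 and hb (-0.73) 0.13; with centring hb (-0.61) had 0.0511. Leaving out single arrays moved gt from -1.62 to -1.32 and hb from -0.86 to -0.58. The difference of tll turned positive with centring (0.0435), with repeated quantile normalization (0.0487) and without wild-type array 2 (0.10), null array 1 (0.04) or null array 3 (0.15), and ran from -0.42 to 0.15 over single arrays left out. Genes with null below wild type on all arrays went from 4 to 2 with centring, beside 17.8% and 8.85% of all genes; centring took the median over all probe sets from -0.03 to 0.09. The causes were not tested. The model without shared spread has fewer degrees of freedom and takes the spread of each probe set alone. Kr, cad, kni and knrl kept their direction and stayed short of the threshold under every alternative listed. With the replicate block gt (-1.52) and hb (-0.73) had adjusted p of 0.000335 and 0.0127, and the block changed no call of a gap gene. It raised the calls over all probe sets from 1472 to 2441; leaving out wild-type array 1, 2 or 3 or null array 1 left 705, 799, 663 and 898, array weights gave 2460 and the model without shared spread 562. Centring moved the split of higher and lower calls from 887 and 585 to 1179 and 324. The fall of tko, whose alternatives were chosen after seeing the data, kept its call in each.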
